A study of Mus musculus with 3 samples.

Results

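The genes described here were 10 members of 2 families of small secreted and cytosolic proteins: the galectins Lgals1, Lgals3, Lgals8 and Lgals9, and the S100 proteins S100a4, S100a6, S100a8, S100a9, S100a10 and S100a11. They were chosen by their GENCODE M21 symbols, with earlier results of these data known. Each matched 1 gene of the 55450 that carried a symbol in the gene tables. The RNA was ribosomal RNA-depleted total RNA of the cytosolic fraction of macrophages grown from the bone marrow of C57BL/6J mice, a primary cell. All 3 libraries belonged to 1 group, in which the cells had received lipid A, the part of bacterial lipopolysaccharide that TLR4 senses, at 100 ng/ml for 120 min. There were no untreated, nuclear or other samples among those analysed, so nothing here measures a response to lipid A. The labels number the libraries as biological replicates but give all of them the same donor ID, and sex and age were not collected. Every SD and p-value below measures only the spread between these libraries, which may be technical.

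Galectins bind beta-galactoside sugars on glycoproteins. They have no signal peptide, act both outside the cell and in the cytosol, and several of them bind sugars that become exposed on damaged endosomes and lysosomes. S100 proteins are small calcium-binding proteins with EF-hand motifs that work mostly as dimers. S100a8 and S100a9 form calprotectin, the abundant cytosolic protein of neutrophils, and S100a10 forms a complex with the phospholipid-binding annexin A2.

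The sequences that bear on the results below are of 2 kinds: coding pieces that distinguish transcripts of the galectins with paired sugar-binding domains, and promoter windows around short motif matches. The first pair was read from the GENCODE M21 transcripts (mm10). Lgals9-203 holds an exon of 93 bases at chr11:78969714-78969806, minus strand, that Lgals9-202, the transcript with most of the estimate, lacks. Lgals8-208 extends a coding exon by 27 bases at chr13:12453258-12453284, minus strand, relative to Lgals8-201. Both lengths are whole numbers of codons, and the Lgals9 exon lies in the linker between the sugar-binding domains.
Lgals9-203 exon: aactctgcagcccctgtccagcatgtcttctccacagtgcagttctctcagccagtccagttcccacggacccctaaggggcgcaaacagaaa
Lgals8-208 extension: gcaagtgcccttccacacacactgggg

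Promoters came from a RefSeq table (GRCm38.p6) that holds 250 bases before to 50 after each gene's start. Of the 10 members 8 matched it, all but Lgals1 and S100a10. The windows of 30 bases below are 5′ to 3′ on the strand of the gene, and the capitals mark the match. The motif TATAAA, the core of a TATA box, stood at base 31 before the start in S100a4 (window chr3:90603727-90603756, plus strand) and at base 30 before it in S100a8 (chr3:90669029-90669058, plus strand). In S100a9 it covered the first bases from the table's start (chr3:90695704-90695733, minus strand). The leading GENCODE transcript starts 93 bases upstream of the table's start in S100a8 and 10 bases downstream of it in S100a9, so the 2 annotations place these matches differently. In S100a6, Lgals8 and Lgals3 it starts 411, 235 and 104 bases downstream, past the 50 bases that the window holds. All matches and counts of promoters therefore refer to the table's starts. TGANTCA, the core of an AP-1 site, occurred in S100a11 at bases 136 and 38 before the start (chr3:93520348-93520377 and chr3:93520446-93520475, plus strand). A pair of GAAA words with any 2 bases between them, which resembles an interferon-stimulated response element, occurred in Lgals9 at base 55 before the start and at base 16 after it (chr11:78984960-78984989 and chr11:78984890-78984919, minus strand), both times on the opposite strand of the gene.
S100a4: ggcctggcagggTATAAAtaggtcagattg
S100a8: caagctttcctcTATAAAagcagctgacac
S100a9: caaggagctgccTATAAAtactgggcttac
S100a11, far match: acagagacctgtTGAGTCAcagggactaca
S100a11, near match: gcgggcacagccTGAGTCAggctgaggggc
Lgals9, upstream match: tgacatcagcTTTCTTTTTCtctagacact
Lgals9, downstream match: atagctgtggTTTCTGTTTCctagctcagc

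Each motif was searched on both strands of all 32851 promoters of the table. TATAAA occurred in 13.6% of them and in 3 of the 8 member promoters. On the sense strand within 50 bases before the start it occurred in 2.63% of all promoters and in 2 members, S100a4 and S100a8. TGANTCA occurred in 7.81% of all promoters and in S100a11 alone among the 8. The GAAA pair occurred in 3.44% and in Lgals9 alone. TTGCNNAA, which C/EBP factors bind, occurred in 10.8% of all promoters and in S100a9 alone, 236 bases before its start. GGG and TTTCC with any 2 bases between them, a kappaB-type motif, occurred in 1.63% of all promoters and in 0 of the 8. A match describes letters in these windows and was not related to binding, which was not measured.

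Depth was 31152786, 114031592 and 59693298 expected counts in replicates 1, 2 and 3. The members held between 120 counts (S100a8 in replicate 1) and 271134 counts (Lgals3 in replicate 2) per library. Levels below are in TPM, a share of all transcripts that divides counts by effective length and can be compared between genes. Nuclear-encoded protein-coding genes held 23.5%, 21.1% and 22.0% of all TPM in replicates 1, 2 and 3. Differences in TPM between libraries can therefore include this shift in the denominator. All 10 macrophage markers of a list that includes Lyz2, Mpeg1, Cd68 and Mertk were detected, which here means at least 1 TPM in every library. Lyz2 was highest at 4039 ± 316 TPM, followed by Mpeg1 at 620 ± 51.4 and Cd68 at 545 ± 20.5, and Mertk was lowest at 14.5 ± 3.04 (SD, n = 3 each). None of the 9 stromal, 8 lymphoid, 6 dendritic, 6 eosinophil and mast cell and 4 erythroid markers was detected. The summed level of the stromal list was between 0.12 and 0.24 TPM per library. That of the dendritic list, the highest of these lists, was between 1.61 and 2.34 TPM. Replicate 2 stood apart in RNA that is retained in nuclei: the non-coding RNA Malat1 was at 178 TPM there and at 741 and 812 TPM in replicates 1 and 3. Whether that bears on the members was not tested.

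All 10 members were detected, against a background of 37.7% of 21911 nuclear-encoded protein-coding genes. Their levels ran from Lgals3 at 1154 ± 85.9 TPM down to S100a8 at 8.32 ± 1.26 TPM (SD, n = 3 each). The median of the 10 means was 49.7 TPM, while the median over the 8270 detected protein-coding genes was 6.84 TPM. Lgals3, Lgals1 and S100a10 reached 100 TPM in every library, as did 1.48% of the protein-coding genes. Because the members were chosen with earlier results of these data known, these comparisons with all genes describe them and test nothing. The order of mean levels was Lgals3, Lgals1, S100a10, Lgals9, S100a11, S100a4, S100a6, Lgals8, S100a9 and S100a8. Of the 9 neighbouring pairs in this order, 6 had values that did not overlap between the genes, and Lgals9 with S100a11, S100a4 with S100a6 and S100a6 with Lgals8 overlapped. In the kallisto-layout table, a second quantification of the same libraries, S100a6 and Lgals8 changed places and the other 8 members kept theirs. By annotated length 8 kept their place, with Lgals8 above both S100a6 and S100a4. By counts with no length 5 kept their place, with Lgals9 above S100a10 and Lgals8 above S100a11.

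**Figure D1:**
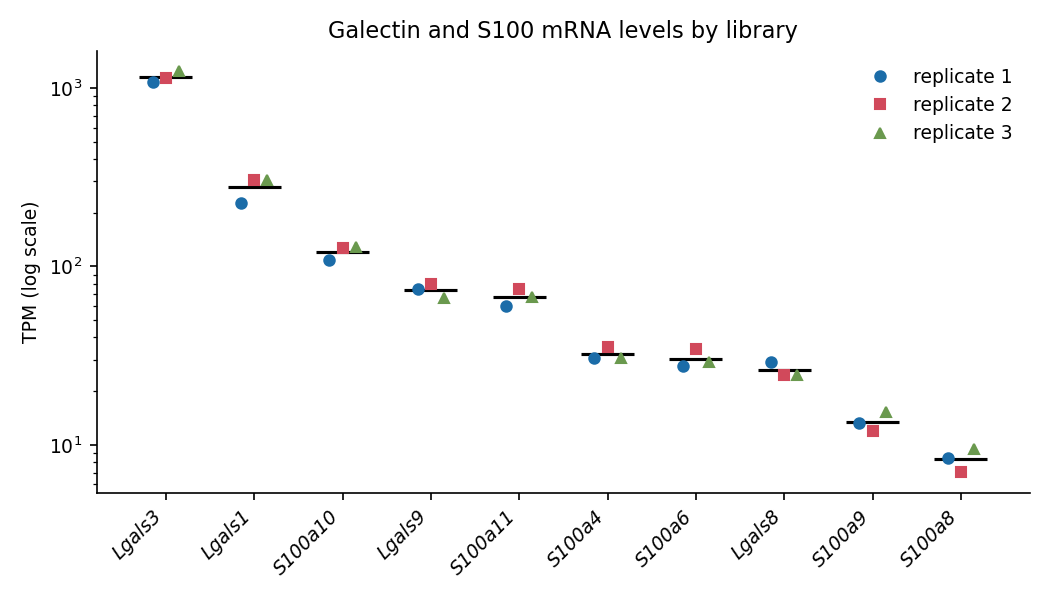
TPM of each member (log axis) in replicates 1 (circles), 2 (squares) and 3 (triangles), with the mean of the 3 libraries as a bar. Lgals3 lies above 1000 TPM in every library, and S100a8 between 7.01 and 9.53 TPM.

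Lgals3, on chromosome 14, encodes the only galectin that joins 1 sugar-binding domain to a self-associating tail, and it is a long-used macrophage marker. It measured 1077, 1139 and 1247 TPM in replicates 1, 2 and 3, values that carry the swing between its transcripts described below. It ranked 15 among the 21911 nuclear-encoded protein-coding genes by mean TPM. It contributed 75.2% ± 1.56 of all galectin TPM (SD, n = 3), and 78.0% ± 0.881 of all galectin counts, so it led on both scales.

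Lgals1, on chromosome 15, encodes a galectin that works as a dimer of identical subunits. It measured 228, 306 and 306 TPM, with replicate 1 below the other two. Its mean of 280 ± 45.2 TPM gave rank 98, and it held 18.2% ± 1.83 of galectin TPM (SD, n = 3). Within each library Lgals3 exceeded Lgals1, by 4.72-, 3.72- and 4.07-fold, a mean log2 ratio of 2.05 ± 0.17 (SD, n = 3). The kallisto-layout table gave 4.83-, 4.28- and 4.42-fold. With 3 libraries an exact two-sided test of a ratio cannot go below p = 0.25, so no ratio was tested.

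Lgals9 and Lgals8 encode the tandem-repeat galectins of this set, each with paired sugar-binding domains on a linker. Lgals9, a ligand of the receptor TIM-3 on T cells, measured 74.3, 79.7 and 66.8 TPM and ranked 511. Lgals8, which marks damaged vesicles for autophagy, measured 29.3, 24.6 and 24.5 TPM and ranked 1387. Lgals9 exceeded Lgals8 in every library, by 2.54-, 3.24- and 2.73-fold, with a geometric mean of 2.82. Together the 4 galectins made up 0.153% ± 0.0119 of all TPM, and 0.694% ± 0.0815 of the TPM of nuclear-encoded protein-coding genes (SD, n = 3 each). The other 6 galectin and galectin-related genes of the list were not detected. The highest of these, Lgalsl, was at 0.39 ± 0.0721 TPM, and 2 had no counts in any library.

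Of 12 genes for galectin ligands and helpers, 10 were detected. The lysosomal glycoprotein gene Lamp1 was the highest at 539 ± 38.1 TPM, followed by Lgals3bp, whose secreted product binds galectin-3, at 276 ± 8.78 TPM and the hyaluronan receptor gene Cd44 at 234 ± 14.4 TPM (SD, n = 3 each). Havcr2, which encodes TIM-3, was also present at 4.05 ± 0.20 TPM. Havcr2 falls outside the rule for named genes and was chosen after its values were seen. Calcoco2, the gene of the autophagy receptor NDP52 that binds galectin-8 in human cells, was listed at 0 in all 3 libraries.

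S100a10, the annexin A2 partner, was the highest of the 6 S100 members at 108, 126 and 129 TPM, rank 292. Anxa2 itself was at 119, 128 and 144 TPM. The ratio of S100a10 to Anxa2 was 0.911, 0.988 and 0.894 in the 3 libraries, so the mRNAs of the complex were at near-equal TPM, with a mean log2 ratio of -0.10 ± 0.08 (SD, n = 3). This near-equality depended on scaling by effective length: the ratio of counts was 0.351, since the Anxa2 mRNA is longer. With counts divided by annotated length it was 0.740.

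S100a11, which binds annexin A1 and works in membrane repair, measured 59.8, 74.4 and 67.0 TPM and ranked 556. S100a4 (also called metastasin), a binder of non-muscle myosin, measured 30.8, 35.4 and 30.8 TPM. S100a6 (calcyclin), whose partners include Cacybp, measured 27.5, 34.7 and 29.1 TPM. S100a4 exceeded S100a6 in 3 of 3 libraries, but the 2 ranges overlapped, and S100a6 was 0.938 of S100a4 on average (log2 ratio -0.09 ± 0.07, SD, n = 3). The order turned when lengths were treated differently: S100a6 was 1.03-fold S100a4 by annotated length and 1.18-fold by counts.

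S100a9 and S100a8, the calprotectin subunits, were the lowest members. S100a9 measured 13.2, 11.9 and 15.3 TPM and S100a8 measured 8.42, 7.01 and 9.53 TPM. Both were highest in replicate 3 and lowest in replicate 2. In TPM rescaled to nuclear-encoded protein-coding genes S100a8 was still lowest in replicate 2. S100a9 was then lowest in replicate 1, narrowly, at 56.2, 56.5 and 69.6. In the kallisto-layout table both genes were instead highest in replicate 1 and lowest in replicate 3, the library in which every member was lowest there. S100a9 exceeded S100a8 in each library, by 1.57-, 1.70- and 1.61-fold, a log2 ratio of 0.70 ± 0.06 (SD, n = 3). In the kallisto-layout table the log2 ratio was 0.66 ± 0.11.

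Because neutrophils carry large amounts of both calprotectin mRNAs, neutrophil markers are given beside them. Of 16 neutrophil markers 4 were detected, and the summed level of the list was 28.2, 21.3 and 27.4 TPM in replicates 1, 2 and 3. The highest were Csf3r at 13.3 ± 1.80, Mmp8 at 3.76 ± 0.564 and Lcn2 at 3.57 ± 0.801 TPM (SD, n = 3 each). Without Csf3r the summed level was 13.35, 9.97 and 13.63 TPM in replicates 1, 2 and 3. The defining marker Ly6g had no counts in any library, and Ngp, a granule protein gene and the remaining detected marker, was at 2.21 ± 0.495 TPM. The granule genes Elane and Mpo were at 0.14 and 0.19 TPM on average. Ngp, Elane and Mpo fall outside the rule for named genes and were chosen after their values were seen. Of 7 monocyte markers 3 were detected, and F13a1 was the highest of them at 11.6 ± 3.54 TPM. In TPM the sum of neutrophil markers, like S100a8 and S100a9, was lowest in replicate 2, as were 7 of the 10 macrophage markers and the sum of monocyte markers, at 16.6 TPM. In TMM-scaled CPM, counts per library total after edgeR's TMM scaling, S100a8 and S100a9 were lowest in replicate 1. The 4 detected neutrophil markers were divided on that scale. Ngp was also lowest in replicate 1, at 3.61, 3.77 and 5.23 in replicates 1, 2 and 3, and Csf3r, Mmp8 and Lcn2 were lowest in replicate 2. The shares of all genes that were lowest in each library were not computed on either scale. The part of other cells in these levels was not tested. In a bulk sample, fewer cells of a type and less RNA per cell cannot be told apart.

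Of 12 genes for S100 partners and receptors, 11 were detected. Anxa5 was the highest at 248 ± 20.8 TPM, followed by Ahnak, a scaffold of the S100a10 and annexin A2 complex, at 214 ± 13.9 TPM and Anxa1 at 179 ± 12.5 TPM (SD, n = 3 each). Tlr4, the receptor for both lipid A and calprotectin, was at 13.1 ± 3.76 TPM. It too was chosen outside the rule, after its values were seen. Ager, the gene of the receptor RAGE, was the lowest at 0.04 TPM on average.

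The 6 S100 members lie on chromosome 3, in the cluster that holds most S100 genes. S100a4, S100a6, S100a8 and S100a9 stand in a first block of 12 S100 genes over 184.7 kb, and S100a11 and S100a10 stand 2825 kb farther along. In the first block, 6 genes were detected and 6 were not, and they were interspersed. S100a5, between S100a4 and S100a6, had no counts in any library. S100a7a, between S100a6 and S100a8, had at most 1 count in any library, as did S100a14, S100a16, S100a3 and S100a2. None of these 6 undetected genes exceeded 0.04 TPM in any library. A count of 0 allows up to 3 counts, or 0.0263 CPM, counts scaled to the library total, in replicate 2, the deepest library. This limit covers counting error only.

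At the far end of the first block, S100a1 measured 105, 95.4 and 92.9 TPM, above every S100 member except S100a10. S100a1 is known mainly as a calcium sensor of heart muscle. Its neighbour S100a13, which serves the release of proteins that lack a signal peptide, was at 11.8 ± 0.566 TPM (SD, n = 3). These were the only detected genes among the 11 other S100 genes of the list. The 6 members made up 71.3% ± 2.91 of all S100 TPM, S100a1 25.6% ± 2.72 and S100a13 3.10% ± 0.251 (SD, n = 3 each). S100a10 gave 31.6% of all S100 TPM, S100a11 17.5%, S100a4 8.45%, S100a6 7.94%, S100a9 3.53% and S100a8 2.18%. In all, the S100 members were 0.0273% ± 0.00220 of all TPM and 0.123% ± 0.0163 of the TPM of nuclear-encoded protein-coding genes.

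**Figure D2:**
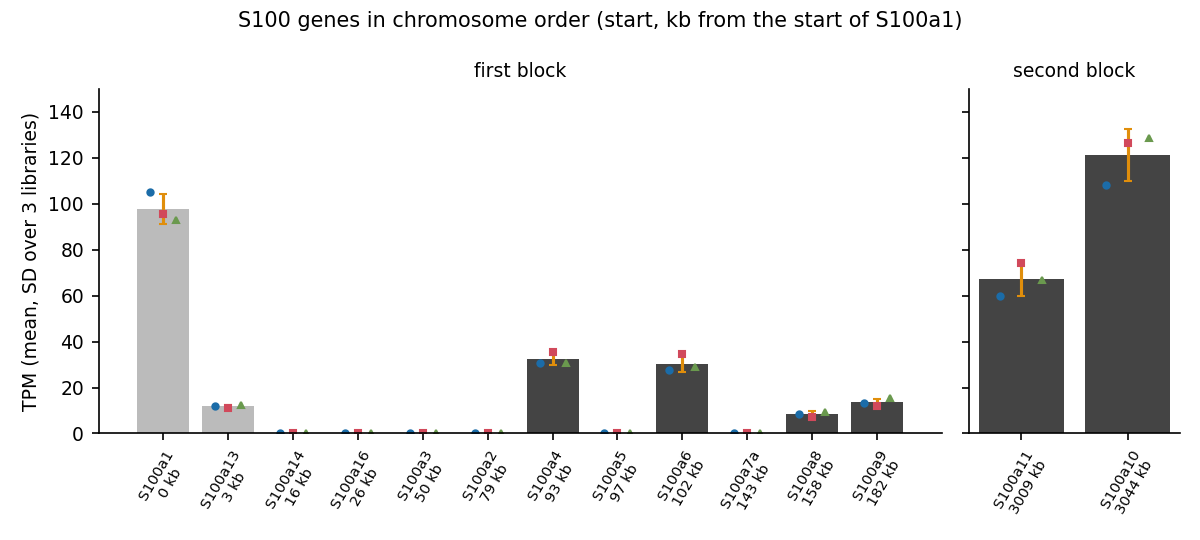
Mean TPM (bars) with SD over 3 libraries (error bars) and each library's value (circles, squares and triangles for replicates 1, 2 and 3) for the 14 S100 genes of chromosome 3 in their order along it, with the distance of each start from the start of S100a1 in kb. Members are dark and other genes grey. Genes at 30.4 TPM (S100a6) and 32.3 TPM (S100a4) flank S100a5, which had no counts.

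Whether a member varied between the 3 libraries beyond counting error was asked with a Poisson dispersion test on rounded expected counts, fitted to all genes with at least 10 counts on average and adjusted by Benjamini-Hochberg with TMM library sizes from edgeR. It compares libraries, not conditions. Of the 14028 genes tested 62.1% varied (adjusted p under 0.05), and of the 10 members 9 did, so a call was common among genes at this depth. Among nuclear-encoded protein-coding genes alone 61.5% varied, and all 10 members did. S100a8, the lowest member, was not called (adjusted p = 0.0568 in the dispersion test with edgeR's TMM sizes), and S100a9 was (adjusted p = 0.012). The test without replicate 1, 2 or 3 called 8, 6 and 7 members, while the share of all genes called was 45.3%, 37.9% and 49.5%. Without replicate 2, the calls of Lgals9, S100a4 and S100a6 were lost. Without replicate 1 that of S100a9 was lost, and without replicate 3 those of Lgals8 and S100a9 were lost.

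In TMM-scaled CPM, Lgals1 was at 228, 373 and 334 in replicates 1, 2 and 3, a 1.63-fold range. S100a11 was at 29.4, 46.03 and 36.4, a 1.57-fold range. Lgals8 was the steadiest at 108, 108 and 94.4. Replicate 1 was the lowest library for 8 members and replicate 2 the highest for 8. The shares of all genes with these lowest and highest libraries were not computed, so the counts only describe the members. The exceptions at the top were S100a8 and S100a9, both highest in replicate 3, and those at the bottom were Lgals8 and Lgals9, both lowest in replicate 3. In the kallisto-layout table replicate 3 was the lowest library for all 10 members and replicate 2 the highest for 7. Which library was lowest thus depended on the quantification. In that table replicate 3 was also lowest for every macrophage marker of the list, among them Lyz2 at 1766, 1605 and 1043 TPM. The count of 10 is therefore not particular to the members, and the share over all genes was not computed.

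On this scale the median coefficient of variation of the members was 17.8%, against 9.80% over the 11795 protein-coding genes tested, and 1 member, Lgals8, lay below that median. In TPM the 2 medians were 10.6% and 10.1%, and 4 members lay below. Lgals3 was among these at 7.44%, and its TPM values carry the swing between its transcripts described below. In TPM rescaled to nuclear-encoded protein-coding genes the 2 medians were 13.5% and 8.10%. TMM-scaled CPM differs from TPM in both length and denominator, whereas the rescaled TPM differs from TPM in the denominator only. The gap between the medians was small in TPM alone, so a change of denominator with the same lengths was enough to widen it. Of the 10 members 7 had mean annotated lengths under 1000 nt. The length that the tables subtract to obtain effective length, which follows the fragment length of a library, was 234, 213 and 226 nt in replicates 1, 2 and 3. The part of fragment length in the spread was not tested.

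**Figure D3:**
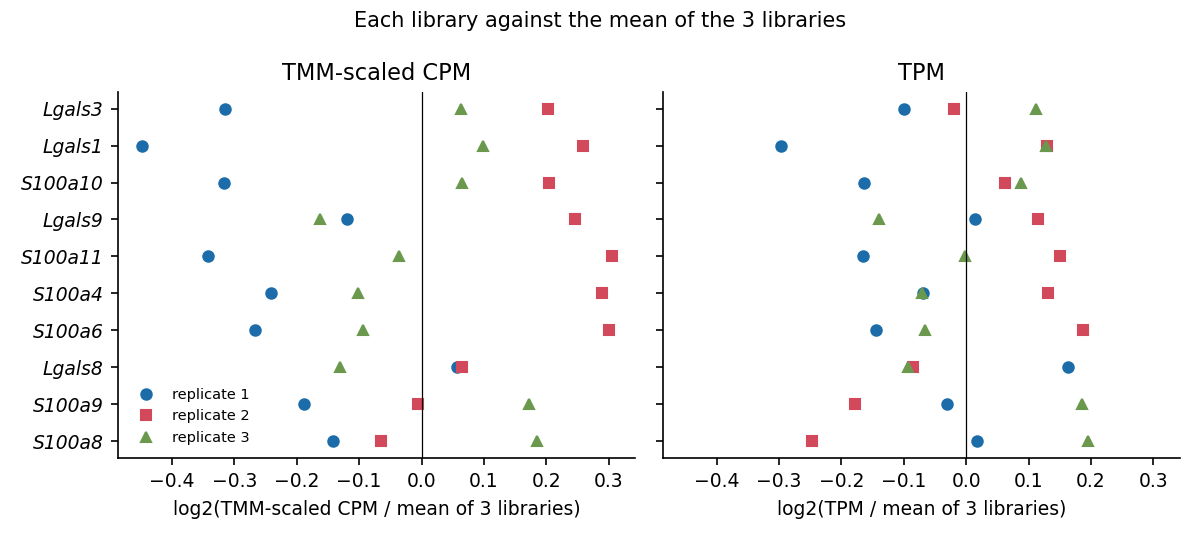
Log2 of each library's value over the mean of the 3 libraries for each member, in TMM-scaled CPM (left) and TPM (right). In the left panel replicate 1 (circles) is the lowest library for 8 members and replicate 2 (squares) the highest for 8, and in the right panel the counts are 5 and 5. The same shares over all genes were not computed.

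GENCODE M21 lists 36 transcripts for the members. In 9 of the 10 genes the same transcript led in all 3 libraries, and it led in the second quantification, the kallisto-layout table, as well. In 6 genes it held over 90% of the gene's TPM on average: Lgals1, Lgals9, S100a4, S100a8, S100a10 and S100a11.

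Lgals3 was the exception. In the RSEM-layout table Lgals3-203 held 68.1%, 16.9% and 53.5% of Lgals3 TPM in replicates 1, 2 and 3, and Lgals3-204 held 23.2%, 69.4% and 34.6%. The leading transcript was thus Lgals3-204 in replicate 2 and Lgals3-203 in the other libraries. In the kallisto-layout table Lgals3-203 held 79.96%, 78.0% and 79.7%, with no such swing. Lgals3-201, Lgals3-203 and Lgals3-204 have the same 792 coding bases and differ in the first exon and at the 3′ end, so the swing did not bear on the protein encoded. It arose in the 1 quantification and not in the other from the same libraries, so it is not counted as a difference between libraries.

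**Figure D4:**
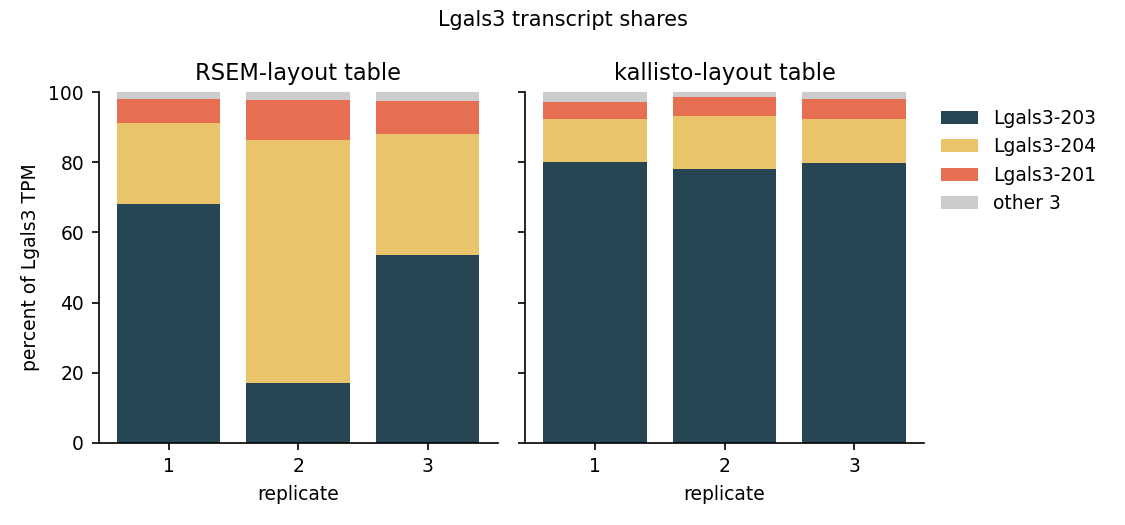
Percent of Lgals3 TPM in each transcript (stacked bars) in replicates 1, 2 and 3, in the RSEM-layout table (left) and the kallisto-layout table (right). Lgals3-203 falls to 16.9% in replicate 2 in the left panel and stays between 78.0% and 79.96% in the right panel.

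Lgals9 was almost wholly the form with the shorter linker. Lgals9-202, with 966 coding bases, held 95.5% ± 0.94 of Lgals9 TPM, and Lgals9-203, with the 93-base exon printed above and 1059 coding bases, held 2.84%, 2.94% and 3.01% in replicates 1, 2 and 3 (2.93% ± 0.0856, SD, n = 3). The kallisto-layout table gave 93.3% ± 2.04 and 3.31% ± 0.185. Both quantifications therefore put the longer-linker form at a few percent in every library.

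In the RSEM-layout table Lgals8 was divided among 4 transcripts that each held at least 10% of its TPM, with 3 distinct coding structures. Lgals8-201 led with 34.4% ± 3.57 and encodes 948 coding bases, as does Lgals8-202 with 10.1% ± 1.22. Lgals8-206 held 24.5% ± 3.31 and has 669 coding bases, because it skips the exon that carries the usual start of translation. Lgals8-208, with the 27-base extension printed above and 975 coding bases, held 14.7% ± 1.82 (SD, n = 3 each). The kallisto-layout table gave Lgals8-206 8.09% ± 5.70, so its share differed between the quantifications, whereas Lgals8-208 was at 16.03% ± 2.89 there. Lgals8-202 was below 10% in that table, at 8.38% ± 6.28. The non-coding Lgals8-209 was above it, at 12.1% ± 7.53, against 2.21% ± 1.85 in the RSEM-layout table (SD, n = 3 each). Lgals8 also shares 155 exonic bases with Heatr1 on the opposite strand, a gene at 4.40 ± 0.306 TPM. The strand setting of the counting is not given in the sources used here, so reads from these bases cannot be told apart.

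Among the S100 genes, S100a6 was divided between transcripts with different first exons and the same 267 coding bases. S100a6-203 held 61.2% ± 3.38 and S100a6-201, which starts 423 bases upstream, held 38.7% ± 3.52. S100a9-201 held 84.9% ± 4.12 and S100a9-202, with the same 339 coding bases, 15.1% ± 4.12 (SD, n = 3 each). The kallisto-layout table gave 57.1% ± 2.79 for S100a6-203 and 83.5% ± 5.12 for S100a9-201.

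Retained-intron transcripts, 7 of the 36, held little of the members' TPM: 0.302%, 0.123% and 0.235% in replicates 1, 2 and 3. The kallisto-layout table gave 0.470%, 0.131% and 0.366%. Replicate 2 was lowest for 4 of the 7, and the share over all retained-intron transcripts was not computed. Most of the summed TPM came from Lgals8-204 (2.62, 1.46 and 2.30 TPM) and Lgals9-204 (1.49, 0.38 and 1.46 TPM).

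Reads can be ambiguous where a member shares sequence with another gene. Of the 31-base words of S100a4-201, 58.1% also occur in Gm42674, which overlaps S100a4 by 302 exonic bases on the same strand and was itself at 0.0167 TPM. Of the words of S100a11-201, 48.9% occur in 6 other genes, foremost Gm12854. By this measure S100a4 and S100a11 shared the most sequence of the 10. The effect of the sharing on their levels was not tested. Lgals8-201 shared 7.24% of its words and S100a10-201 shared 0.763%, and the leading transcripts of the other 6 members shared none. No word was shared between members. The processed pseudogenes Lgals1-ps1, Lgals1-ps2 and S100a11-ps were listed at 0 in all 3 libraries.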

How the data were processed

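The members and gene lists were chosen with earlier results of these data known. Per the file headers, the authors deposited expected counts (model estimates), TPM and FPKM per gene and transcript, each transcript's percent within its gene, credibility bounds of TPM (a signal-type column, not used in comparisons), and a kallisto-layout transcript table with TPM. The deposited listings name mm10 and GENCODE M21. The labels and headers used here name no aligner and no strand setting.

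TPM was summarised as mean and SD. Detection meant at least 1 TPM in every library. For the dispersion test, expected counts were rounded and genes with under 10 counts on average were dropped. The tools were R 4.3.3, edgeR 4.0.16, DESeq2 1.42.0 (size factors only, as an alternative), Python 3.11.15 and pandas 2.3.3. The test was checked on simulated data. Named genes were all members, other detected galectin and S100 genes, up to the 3 highest and 1 lowest of each partner and marker list, transcripts with at least 10% of a member's TPM, and genes with overlapping exons. Alternatives covered the second quantification, FPKM, other denominators and lengths, thresholds, normalization, count filters, the pseudocount and leaving out each library. Of the listed symbols, Lgals6, S100a7l2 and S100p matched no gene.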

Additional observations from a re-analysis of the deposited data

How the results depend on the processing

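All 10 members stayed detected at 0.5 and 5 TPM, in the kallisto-layout table and without any library, and 9 did at 10 TPM. The median level of 49.7 TPM became 19.0 in the kallisto-layout table, 95.1 FPKM, 225 over nuclear-encoded protein-coding genes and 73.3 by annotated length, and lay between 47.1 and 51.9 without 1 library. The galectin share of the total became 0.0606%, 0.694% and 0.293% in the kallisto-layout table, over protein-coding genes and by annotated length, and the S100 share 0.0102%, 0.123% and 0.0401%, or 0.0383% with S100a1 and S100a13, an alternative chosen after seeing the data. Shares without 1 library were 0.148% to 0.160% and 0.0264% to 0.0285%. The median rank, 841, became 1097 by annotated length. By counts with no length, the log2 ratios were 0.84 for S100a9 to S100a8, -1.51 for S100a10 to Anxa2, 2.79 for Lgals3 to Lgals1, 0.81 for Lgals9 to Lgals8 and 0.24 for S100a6 to S100a4, the only one to turn its sign. The FPKM, protein-coding, annotated-length and count values change only the denominator or length; the cause of the shift in the kallisto-layout table was not tested. Genes varying between libraries numbered 8712, and 5202 to 6893 without 1 library, where fewer samples entered. No paired analysis was possible because there is 1 group. Depth limits S100a8 most, at 120 counts in replicate 1.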
